A study of Mus musculus with 3 samples.

Results

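Cell cycle inhibitors were followed in the fetal testis of mice that lack Cyp26b1, with or without Stra8. The set held 9 genes: Cdkn1a, Cdkn1b and Cdkn1c, which encode the CIP/KIP inhibitors, Cdkn2a, Cdkn2b, Cdkn2c and Cdkn2d, which encode the INK4 inhibitors, Rb1, and Gadd45b. Every probe whose transcript accession mapped to one of these genes in the mouse RefSeq gene table was taken, which gave 12 of the 41174 probes on the array, against 16535 genes with a symbol in all. Of the 12 probes, 10 could be tested, at least 1 for each of the 9 genes. The second probe of Cdkn1b, A_52_P673863, was well above background on 0 of 2 double knockout, 1 of 2 Cyp26b1 knockout and 1 of 2 wild-type arrays, and the second probe of Rb1, A_52_P419873, was not well above background on any array. Those probes give no level for their genes.

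Cyclin-dependent kinases (CDKs) bound to cyclins drive cells through the division cycle by phosphorylating the retinoblastoma protein, the product of Rb1, which otherwise holds E2F transcription factors in check. CIP/KIP proteins bind CDK and cyclin complexes, whereas INK4 proteins bind Cdk4 and Cdk6 and keep them from D-type cyclins. In the mouse fetal testis germ cells stop dividing and enter a long mitotic arrest, while germ cells of the fetal ovary enter meiosis under retinoic acid. Cyp26b1 is the enzyme that degrades retinoic acid in the fetal testis, and Stra8 is a retinoic acid-induced gene required for meiotic entry.

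Total RNA from male gonads at embryonic day 14.5, of the mouse line MCH, was measured on Agilent one-colour arrays, with 2 arrays for each of 3 genotypes. The double knockout is Cyp26b1-/- and Stra8-/-, the Cyp26b1 knockout is Cyp26b1-/- and Stra8+/+, and the wild type is Cyp26b1+/+ and Stra8+/+. The labels name no tissue-specific driver for either knockout. Duplicates were biological, per the series' design text, but no source says if RNA of several embryos was pooled, and p-values reflect the spread among these arrays alone. The comparison of the Cyp26b1 knockout with wild type asks what changes when the enzyme is missing, and that of the double knockout with the Cyp26b1 knockout asks which of those changes differ when Stra8 is missing too.

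Levels are spot intensities divided by the 75th percentile of their array, so that a level of 1 is the brightness of the probe at that percentile. Changes are differences of mean log2 levels, given with the standard error (SE) of a limma fit over all 6 arrays, and a probe is called changed where the p-value adjusted by Benjamini-Hochberg over the 27865 tested probes is under 0.05. Raw 75th percentiles were 997 to 1532 intensity units, and 61.9% to 68.5% of probes were well above background. The 2 arrays of a genotype correlated at 0.9946 in the double knockout, 0.9941 in the Cyp26b1 knockout and 0.996 in wild type over 24500 probes. Each genotype lay on a slide of its own, so slide and genotype cannot be told apart, and the Cyp26b1 knockout slide was scanned on another day than the other 2 slides, so the double knockout and wild type are compared within 1 scan day. An exact permutation test of 2 arrays against 2 cannot give a p below 0.333.

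The targeted genes did not settle the genotypes. Cyp26b1 measured 16.7 and 14.6 on the arrays labelled double knockout and 18.8 and 13.8 on those labelled Cyp26b1 knockout, against 15.9 and 13.8 on the wild-type arrays, and it was called in no comparison. Stra8 measured 61.1 and 68.3 on the arrays labelled double knockout and 142 and 127 on those labelled Cyp26b1 knockout, against 12.9 and 5.17 on the wild-type arrays. No source used here gives where either probe lies relative to the deleted part of its gene, so these signals neither bear out nor contradict the labels, and every direction below rests on the labelled genotype.

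Promoter windows of 4 called inhibitors, 3 that fell and Gadd45b, which rose, are printed because 2 of them share a run of letters near their start sites. RefSeq windows of 300 bases, 250 before to 50 after a transcription start, in build GRCm38.p6, were at hand for 7 of the 9 genes, in 10 windows, the others being Cdkn1c and Rb1. GGGCGG, known from Sp1 sites, was found on either strand in 8 of the 10 windows, against 35.7% of all 32851 windows in the table. CNCCTCAG, a motif reported from Stra8-bound promoters, was found in 2 of the 10 windows, against 7.94% of all. Those were the window of Cdkn2b, where the match began 2 bases before the start, and the second window of Cdkn1a, where it began 52 bases before the start. In both windows it lay on the minus strand of the window and overlapped an Sp1 match, and the joined run read CTGAGGGGGCGG in each. That run of 12 bases was present on either strand in 28 of the 32851 windows, or 0.0852%. The run was read from these windows and not chosen beforehand, so its rarity tests nothing about these genes. Windows are written 5′ to 3′ along the gene, and capitals mark matches to the Sp1 or Stra8 letters.
Cdkn2b, chr4:89310983-89311282, minus strand: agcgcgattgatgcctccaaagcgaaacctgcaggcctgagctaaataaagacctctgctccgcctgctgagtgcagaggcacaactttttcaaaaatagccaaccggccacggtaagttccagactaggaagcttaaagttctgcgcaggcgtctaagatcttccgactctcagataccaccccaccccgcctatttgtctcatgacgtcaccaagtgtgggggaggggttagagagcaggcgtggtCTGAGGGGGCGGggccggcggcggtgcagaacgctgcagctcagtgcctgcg
Cdkn1a second window, chr17:29093519-29093818, plus strand: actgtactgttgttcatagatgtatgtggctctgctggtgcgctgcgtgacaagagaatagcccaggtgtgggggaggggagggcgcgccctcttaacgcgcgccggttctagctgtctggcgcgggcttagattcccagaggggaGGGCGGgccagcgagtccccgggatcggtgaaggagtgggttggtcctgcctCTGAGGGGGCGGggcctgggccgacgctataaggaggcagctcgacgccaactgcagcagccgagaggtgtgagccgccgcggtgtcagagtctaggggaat
Cdkn1b, chr6:134920151-134920450, plus strand: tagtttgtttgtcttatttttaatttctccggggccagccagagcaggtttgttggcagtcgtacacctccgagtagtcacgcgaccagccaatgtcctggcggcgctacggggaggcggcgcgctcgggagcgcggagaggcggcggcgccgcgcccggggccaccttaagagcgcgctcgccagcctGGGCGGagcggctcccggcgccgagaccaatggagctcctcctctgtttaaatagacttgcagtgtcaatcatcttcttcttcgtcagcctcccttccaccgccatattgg
Gadd45b, chr10:80929841-80930140, plus strand: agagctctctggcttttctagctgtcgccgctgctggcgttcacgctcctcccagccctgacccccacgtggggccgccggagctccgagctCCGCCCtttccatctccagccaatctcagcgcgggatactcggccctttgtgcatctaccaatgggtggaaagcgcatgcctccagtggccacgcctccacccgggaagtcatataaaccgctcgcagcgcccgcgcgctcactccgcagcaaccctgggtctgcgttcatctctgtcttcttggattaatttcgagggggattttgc

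The Cdkn1b and Gadd45b windows held an Sp1 match and no Stra8 match. Of the E2F letters searched (TTTCCCGC, TTTGGCGC and TTTCGCGC, either strand), which 1.84% of all windows hold, 1 match was found among the 10 windows, in the second window of Cdkn2a. For the retinoic acid response element a single form of 17 bases was searched, which 3 of all 32851 windows hold, or 0.00913%. That form was found in 0 of the 10 windows. Since it is so rare, its absence cannot tell if these promoters lack such elements. The 10 windows were 44.0% to 77.0% GC, against a median of 52.7% for all windows. A match describes letters in a window and not binding, and no binding was measured here.

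In the Cyp26b1 knockout 4 of the 9 inhibitor genes fell relative to wild type (Cdkn2b, Cdkn1a, Cdkn1b and Cdkn1c), 2 rose (Gadd45b and Cdkn2d), and Cdkn2a, Cdkn2c and Rb1 did not pass the test. In the double knockout 2 of the 9 fell relative to wild type (Cdkn2b and Cdkn1a) and 2 rose (Gadd45b and Cdkn2d). Between the knockouts, Cdkn2b and Cdkn1c were higher in the double knockout, and Gadd45b was lower by its brighter probe. Each gene is counted by its brightest probe. Both comparisons with wild type use the same wild-type arrays, so a gene that moved the same way in both is not seen in independent data. In the double knockout against wild type, 1 gene (Cdkn2b) was called without wild-type array 1, and 2 (Cdkn2b and Gadd45b) without wild-type array 2, double knockout array 1 or double knockout array 2. Between the knockouts, 1 gene (Cdkn1c) was called without double knockout array 2.

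**Figure D1:**
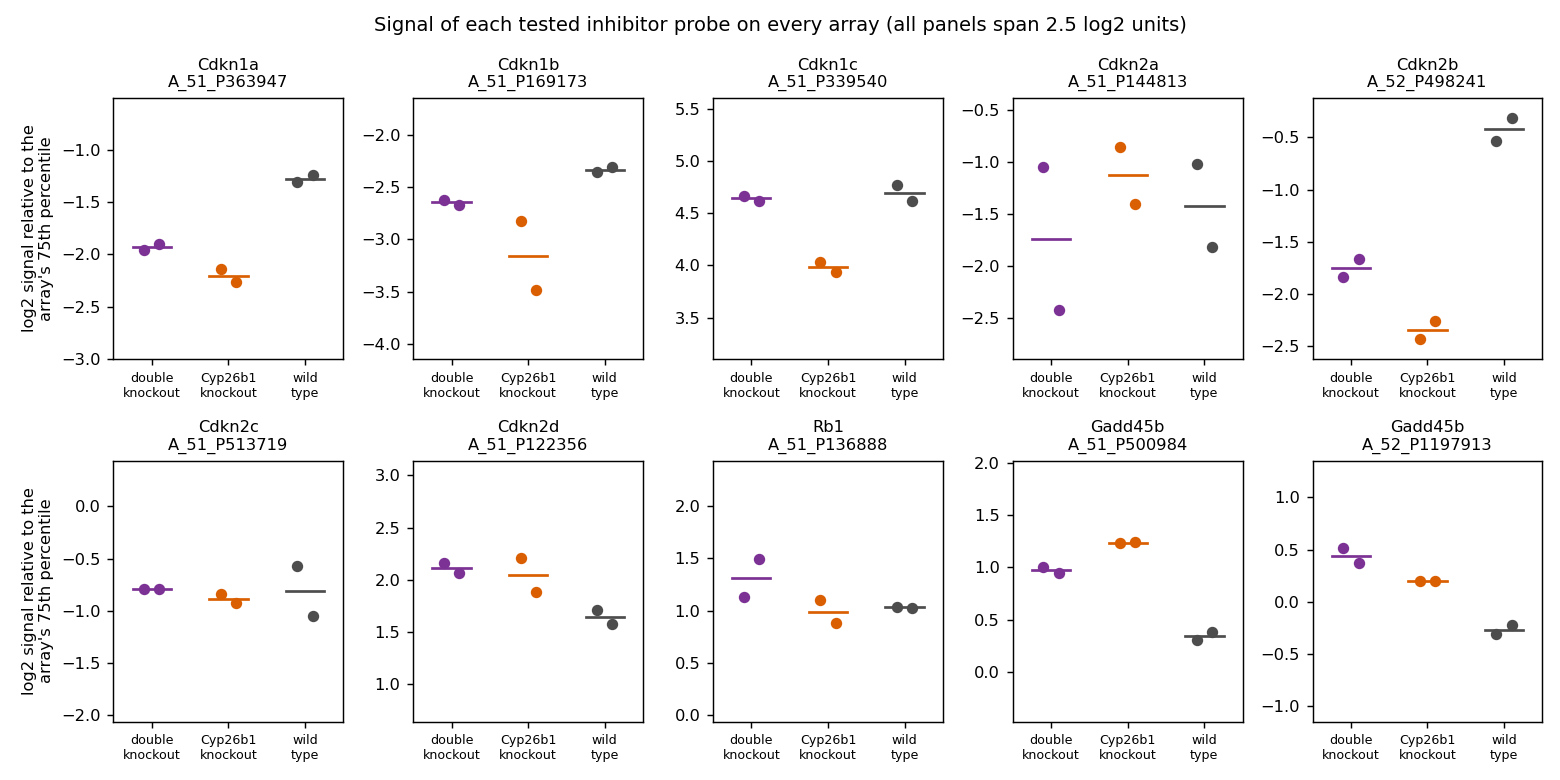
Each panel shows 1 tested probe, with a point per array and a bar at the mean of the 2 arrays of a genotype; the y axis is the log2 signal relative to the array's 75th percentile and spans the same range in every panel. The Cdkn2b and Cdkn1a points are lower on all 4 knockout arrays than on both wild-type arrays, the Cdkn1c points are low in the Cyp26b1 knockout alone, and the 2 Cdkn2a points lie far apart within each genotype.

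These counts have to be read against arrays on which much changed. Over all tested probes, 53.2% were called in the Cyp26b1 knockout against wild type, 25.1% as higher and 28% as lower. For the double knockout against wild type 11.5% were called, 5.02% as higher and 6.46% as lower, and between the knockouts 45.8% were called, 23.5% higher and 22.3% lower. Both comparisons with the larger shares cross scan days. Where the Cyp26b1 knockout alone stood apart, its genotype and its scan day cannot be told apart. The inhibitors' 6 of 9 against wild type in the Cyp26b1 knockout and 3 of 9 between the knockouts are near those shares. Their 4 of 9 in the double knockout against wild type is above the share of all probes, but the list is short and was chosen, and nothing is read from that share about inhibitors as a class. The arrays did not overlap for 6 of 9 genes in the Cyp26b1 knockout against wild type, where 78.9% of all probes did not. They did not overlap for 6 of 9 in the double knockout against wild type, against 62.1% of all probes, and for 7 of 9 between the knockouts, against 73.4%. The median change of the 9 genes was -0.07, -0.05 and 0.27 log2 in these 3 comparisons, taken in the same order, beside -0.04, -0.02 and 0.04 for all probes.

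Cdkn1a, the CIP/KIP gene best known as a target of p53 in response to DNA damage, was lower in both knockouts. Its level was 0.257 and 0.268 on the double knockout arrays and 0.226 and 0.208 on the Cyp26b1 knockout arrays, against 0.403 and 0.424 on the wild-type arrays. All 4 knockout arrays lay below both wild-type arrays. The log2 change was -0.93 ± 0.12 in the Cyp26b1 knockout (SE, n = 2 arrays per genotype; limma adjusted p = 0.000612), or 1.91-fold lower than wild type, and -0.66 ± 0.12 in the double knockout (limma adjusted p = 0.0144), or 1.58-fold lower. The double knockout lay above the Cyp26b1 knockout by 0.27 ± 0.12, which did not pass (limma adjusted p = 0.089), with an interval of 0.00 to 0.55. Leaving out any of the 4 arrays compared ended the call in the double knockout: the limma adjusted p was 0.0601 without double knockout array 1, 0.0506 without double knockout array 2, 0.083 without wild-type array 1 and 0.12 without wild-type array 2. In the Cyp26b1 knockout it was kept under each of the 17 alternative settings run.

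Cdkn1b encodes the KIP protein whose rise is known to accompany the arrest of mouse male germ cells. It measured 0.162 and 0.157 in the double knockout and 0.141 and 0.0891 in the Cyp26b1 knockout, against 0.195 and 0.203 in wild type. The wild-type arrays were the highest pair, and the Cyp26b1 knockout arrays, the lowest pair, stood well apart from each other. The change was -0.83 ± 0.21 in the Cyp26b1 knockout (limma adjusted p = 0.0141), or 1.77-fold lower. It was -0.31 ± 0.21 in the double knockout, which did not pass (limma adjusted p = 0.37; interval -0.81 to 0.18). The call in the Cyp26b1 knockout was lost without wild-type array 1 (limma adjusted p = 0.0587) or array 2 (0.0706), and the change was -0.50 when the background was modelled by normexp without marked spots. With normexp on all spots it was -1.04, not called (limma adjusted p = 0.268). Without Cyp26b1 knockout array 1 the change was -1.16, and without array 2 it was -0.50. The 2 knockouts differed by 0.51 ± 0.21, which did not pass (limma adjusted p = 0.0869), and moved with single arrays, to 0.84 without Cyp26b1 knockout array 1 (limma adjusted p = 0.00954) and to 0.18 without array 2 (limma adjusted p = 0.372).

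Cdkn1c, an imprinted gene whose product restrains growth of many fetal tissues, was lower in the Cyp26b1 knockout than in both other genotypes. It measured 25.4 and 24.5 in the double knockout and 16.4 and 15.3 in the Cyp26b1 knockout, against 27.2 and 24.6 in wild type. The double knockout and wild-type arrays overlapped, and both Cyp26b1 knockout arrays lay below them. The Cyp26b1 knockout arrays were also the only ones of their scan day, so genotype and scan day cannot be told apart here. The change was -0.71 ± 0.09 in the Cyp26b1 knockout against wild type (limma adjusted p = 0.000734), or 1.63-fold lower. The double knockout exceeded the Cyp26b1 knockout by 0.66 ± 0.09 (limma adjusted p = 0.00146), or 1.58-fold. Against wild type its change was -0.05 ± 0.09 (limma adjusted p = 0.756), with an interval of -0.27 to 0.16. With the scaling of the authors' deposited table the difference between the knockouts was 0.35, and it stayed called.

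Cdkn2b, the INK4 gene known to be induced by TGF-beta and to rise in arresting mouse male germ cells, had the largest change of the 9 genes in both comparisons with wild type. It measured 0.279 and 0.316 in the double knockout and 0.185 and 0.209 in the Cyp26b1 knockout, against 0.690 and 0.807 in wild type. No arrays of different genotypes overlapped, with the Cyp26b1 knockout pair lowest and the wild-type pair highest. Its change was -1.92 ± 0.14 in the Cyp26b1 knockout (limma adjusted p = 9.88e-05), or 3.79-fold lower, the 571st lowest of the 27865 tested probes. In the double knockout it was -1.33 ± 0.14 (limma adjusted p = 0.0022), or 2.51-fold lower, the 563rd lowest. Between the knockouts the difference was 0.59 ± 0.14, higher in the double knockout by 1.51-fold (limma adjusted p = 0.0102). That difference was 0.50 without double knockout array 2 (limma adjusted p = 0.0556) and 0.29 with the scaling of the authors' deposited table (limma adjusted p = 0.113). Cdkn2b and Cdkn1a are the genes whose printed windows share the joined run, and its part in their changes was not tested.

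Cdkn2a lies beside Cdkn2b on chromosome 4 of the RefSeq assembly, with 1 long non-coding RNA gene between them, and gives rise to an INK4 protein and to Arf, a protein that stabilises p53. No source used here says which of its transcripts the probe detects. It measured 0.481 and 0.187 in the double knockout and 0.552 and 0.379 in the Cyp26b1 knockout, against 0.493 and 0.284 in wild type. In every genotype the arrays lay far apart, and all 3 genotypes overlapped. The log2 SD between arrays was 0.97 in the double knockout, 0.38 in the Cyp26b1 knockout and 0.56 in wild type. The probe was printed in 10 spots on each array, and their log2 SD within an array was 0.044 to 0.063, so the spread lay between arrays and not between spots. Changes were 0.29 ± 0.44 in the Cyp26b1 knockout (limma adjusted p = 0.607; interval -0.75 to 1.33) and -0.32 ± 0.44 in the double knockout (limma adjusted p = 0.679; interval -1.36 to 0.72), which leaves shifts of over 2-fold in reach. The knockouts differed by -0.61 ± 0.44, not called (limma adjusted p = 0.296), and the value rests on single arrays: it was -1.29 without double knockout array 1 (limma adjusted p = 0.0281) and 0.07 without double knockout array 2 (limma adjusted p = 0.885).

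Cdkn2c, an INK4 gene that acts with Cdkn2d in adult spermatogenesis, measured 0.579 and 0.580 in the double knockout and 0.559 and 0.527 in the Cyp26b1 knockout, against 0.674 and 0.482 in wild type. The knockout arrays all fell between the wild-type arrays. Its changes were -0.07 ± 0.16 in the Cyp26b1 knockout (limma adjusted p = 0.726; interval -0.44 to 0.30) and 0.02 ± 0.16 in the double knockout (limma adjusted p = 0.936; interval -0.34 to 0.39). The difference between the knockouts was 0.09 ± 0.16, also not called (limma adjusted p = 0.649).

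Cdkn2d, the remaining INK4 gene, moved opposite to Cdkn2b. It measured 4.47 and 4.20 in the double knockout and 4.62 and 3.68 in the Cyp26b1 knockout, against 3.26 and 2.98 in wild type. All 4 knockout arrays lay above both wild-type arrays, while the knockouts overlapped. It rose by 0.40 ± 0.12 in the Cyp26b1 knockout (limma adjusted p = 0.0255), or 1.32-fold, and by 0.47 ± 0.12 in the double knockout (limma adjusted p = 0.0471), or 1.39-fold. The knockouts differed by 0.07 ± 0.12 (limma adjusted p = 0.657; interval -0.21 to 0.35). In the Cyp26b1 knockout the call was lost without Cyp26b1 knockout array 1, at 0.24 (limma adjusted p = 0.106), and without wild-type array 1 (0.0574) or array 2 (0.136). In the double knockout leaving out any of the 4 arrays ended it, with limma adjusted p-values of 0.161 and 0.11 without double knockout arrays 1 and 2 and of 0.132 and 0.242 without wild-type arrays 1 and 2. With the scaling of the authors' deposited table its change in the double knockout was 0.27, not called (limma adjusted p = 0.135). Without the intensity trend Cdkn2d was called neither in the Cyp26b1 knockout (limma adjusted p = 0.0617) nor in the double knockout (0.105). Without the filter on dim probes it was not called in the double knockout (limma adjusted p = 0.0877).

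Rb1, the retinoblastoma gene on which the inhibitors converge, measured 2.19 and 2.81 in the double knockout and 2.14 and 1.84 in the Cyp26b1 knockout, against 2.05 and 2.04 in wild type. The Cyp26b1 knockout arrays lay on either side of the wild-type pair, and both double knockout arrays lay above every other array. No difference was called: -0.04 ± 0.14 in the Cyp26b1 knockout (limma adjusted p = 0.806; interval -0.36 to 0.27), 0.28 ± 0.14 in the double knockout (limma adjusted p = 0.221; interval -0.04 to 0.59) and 0.32 ± 0.14 between the knockouts (limma adjusted p = 0.0896). The last was 0.50 without double knockout array 1 (limma adjusted p = 0.025) and 0.14 without double knockout array 2 (limma adjusted p = 0.44). These are transcript levels, and phosphorylation of the protein, through which CDKs act on it, was not measured.

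Gadd45b, a stress- and TGF-beta-inducible gene whose product binds Cdk1 and PCNA, rose in both knockouts on both of its probes. Probe A_51_P500984 measured 2.004 and 1.93 in the double knockout and 2.35 and 2.36 in the Cyp26b1 knockout, against 1.24 and 1.30 in wild type. Probe A_52_P1197913 measured 1.43 and 1.29 in the double knockout and 1.15 and 1.15 in the Cyp26b1 knockout, against 0.808 and 0.858 in wild type. All knockout arrays exceeded both wild-type arrays on each probe, but the probes ordered the knockouts differently.

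On the first Gadd45b probe the change was 0.89 ± 0.08 in the Cyp26b1 knockout (limma adjusted p = 0.000213), or 1.86-fold, and 0.63 ± 0.08 in the double knockout (limma adjusted p = 0.00542), or 1.55-fold. On the second it was 0.47 ± 0.09 in the Cyp26b1 knockout (limma adjusted p = 0.0051), or 1.38-fold, and 0.71 ± 0.09 in the double knockout (limma adjusted p = 0.00582), or 1.63-fold. Without wild-type array 1 the double knockout was no longer called on the first probe (limma adjusted p = 0.0512) or on the second (0.0526). Between the knockouts the first probe gave -0.26 ± 0.08, called lower in the double knockout (limma adjusted p = 0.0375), and the second gave 0.24 ± 0.09, not called (limma adjusted p = 0.0722). Leaving out any of the 6 arrays ended the call on the first probe, with limma adjusted p-values of 0.065 to 0.151, so no direction is given for Gadd45b between the knockouts.

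**Figure D2:**
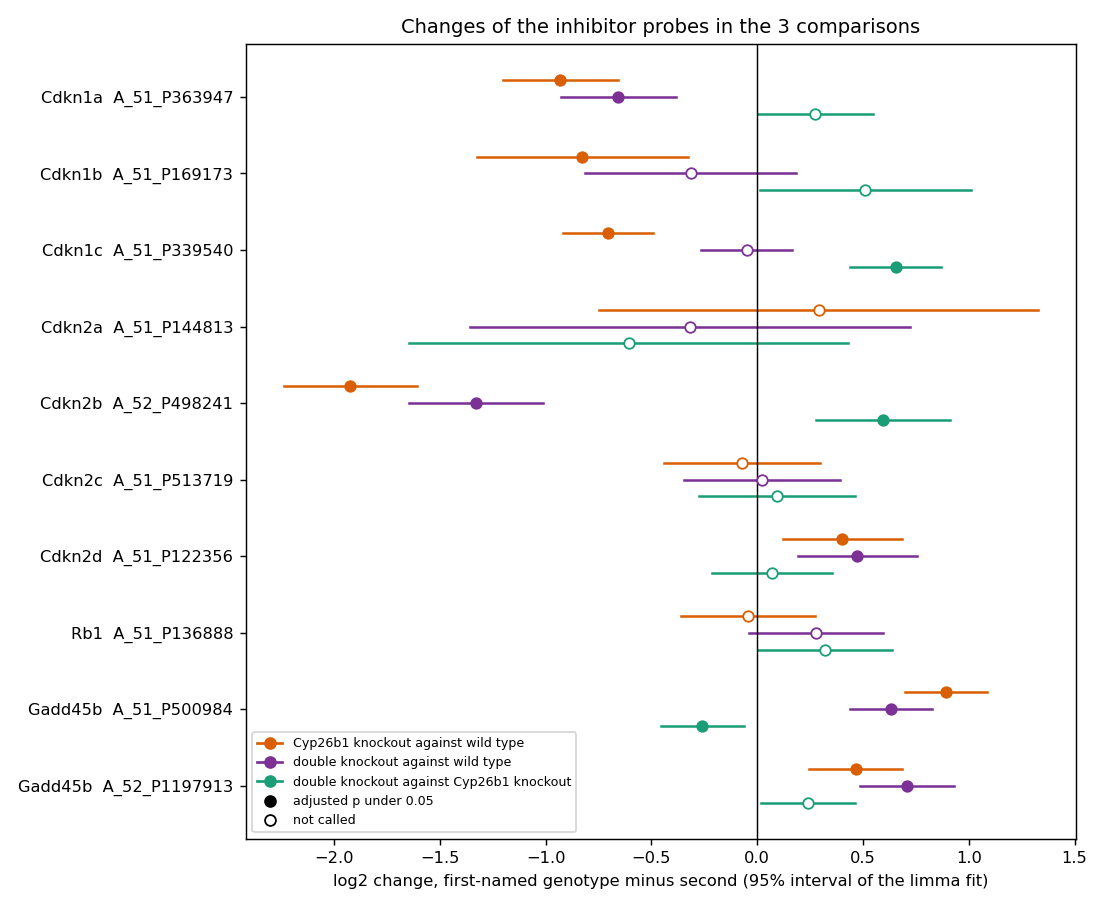
Points are log2 changes of the 10 tested probes, the first-named genotype minus the second, with 95% intervals of the limma fit; filled points have an adjusted p under 0.05. The intervals of Cdkn1c against wild type lie wholly below 0 in the Cyp26b1 knockout and span 0 in the double knockout, while those of Cdkn2b lie below 0 in both, and those of Cdkn2a are the widest.

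The genotype means set these arrangements side by side. Cdkn1c was at 24.97 in the double knockout and at 15.9 in the Cyp26b1 knockout, against 25.9 in wild type (geometric means of 2 arrays). Cdkn2b was at 0.297 in the double knockout and at 0.197 in the Cyp26b1 knockout, against 0.746 in wild type, and so was called different from both. Cdkn2d was at 4.33 in the double knockout and at 4.12 in the Cyp26b1 knockout, against 3.12 in wild type. The authors' deposited table, which holds 1 linear ratio per genotype with its 2 arrays pooled, gave Cdkn2b 0.996 in the double knockout and 0.814 in the Cyp26b1 knockout, against 2.88 in wild type. It gave Cdkn1c 1 in the double knockout and 0.783 in the Cyp26b1 knockout, against 1.19 in wild type. Relative to scaling on the 75th percentile, that table places the double knockout 0.20 log2 lower and the Cyp26b1 knockout 0.10 log2 higher against wild type, and the double knockout 0.30 log2 lower against the Cyp26b1 knockout. With its scaling 12.3% of all calls in the double knockout against wild type were higher, beside 43.7% here, and 19.4% between the knockouts, beside 51.3%, so small rises of the double knockout depend on the scaling.

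The tissue was a mixture of cells, in which fewer cells of a type and less RNA per cell cannot be told apart. All 11 germ cell markers were well above background on every array, and their summed level was 79.4 to 91.8 in the double knockout and 63.0 to 77.9 in the Cyp26b1 knockout, against 98.4 to 99.2 in wild type. In the Cyp26b1 knockout 6 of the 11 fell and 3 rose relative to wild type, in the double knockout 4 fell and 2 rose, and between the knockouts the double knockout had 6 higher and 1 lower. The shares called were 81.8%, 54.5% and 63.6% in these comparisons, against 53.2%, 11.5% and 45.8% of all probes. Nanos2, an RNA-binding factor of the male germ cell programme, changed by -2.93 in the Cyp26b1 knockout (limma adjusted p = 0.000173) and by -1.01 in the double knockout (limma adjusted p = 0.0458). The summed level of 8 meiotic entry markers, which share Sycp3 with the germ cell list, was 106 to 117 in the double knockout and 170 to 193 in the Cyp26b1 knockout, against 18.1 to 28.7 in wild type. Every knockout array had a lower germ cell sum and a higher meiotic sum than both wild-type arrays. The part of these cells in the inhibitors' changes was not tested.

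Somatic markers changed as well. Over the somatic lists 50% to 100% of tested markers were called in the Cyp26b1 knockout against wild type, where 53.2% of all probes were. In the double knockout against wild type it was 0% to 44.4%, beside 11.5% of all probes, and between the knockouts 16.7% to 75%, beside 45.8%. The summed level of 9 Sertoli cell markers was 74.7 to 78.9 in the double knockout and 63.9 to 69.5 in the Cyp26b1 knockout, against 60.7 to 67.4 in wild type. That of 5 fetal Leydig cell markers was 80.7 to 95.9 in the double knockout and 57.5 to 76.8 in the Cyp26b1 knockout, against 93.9 to 109 in wild type. The Leydig, germ cell and endothelial sums were each lowest in the Cyp26b1 knockout. Of the 5 Leydig markers, 3 fell there relative to wild type, among them Star, the cholesterol carrier of steroid synthesis, at -1.57 (limma adjusted p = 0.000218). Markers of mesonephros and ducts summed to 3.93 to 4.38 in the double knockout and 3.91 to 5.11 in the Cyp26b1 knockout, against 6.11 to 6.60 in wild type, and 1 of the 6, Pax2, was well above background on the Cyp26b1 knockout arrays alone. Of 6 ovarian somatic markers, Irx3 was not well above background on any array and Foxl2 on 1 Cyp26b1 knockout array alone. Of the 4 tested, 2 rose and 1 fell in the Cyp26b1 knockout. Their list summed to 12.9 to 13.8 in the double knockout and 9.46 to 13.2 in the Cyp26b1 knockout, against 11.5 to 11.7 in wild type. Endothelial markers summed to 6.96 to 7.69 in the double knockout and 6.35 to 6.51 in the Cyp26b1 knockout, against 6.60 to 7.12 in wild type. Of these 6, 4 rose and 2 fell in the Cyp26b1 knockout. The summed level of 6 macrophage and blood markers was 5.06 to 5.69 in the double knockout and 4.32 to 6.17 in the Cyp26b1 knockout, against 6.69 to 7.70 in wild type. It was lower on all 4 knockout arrays, as were the germ cell sum and the mesonephros and duct sum. Of the 6 macrophage and blood markers, 2 rose and 2 fell in the Cyp26b1 knockout. In the double knockout limma called 0 of them, where 3 had an unadjusted p under 0.05. That of 6 interstitial markers was 107 to 110 in the double knockout and 87.8 to 102 in the Cyp26b1 knockout, against 97.8 to 113 in wild type. Of these, 3 fell in the Cyp26b1 knockout against wild type, limma called 0 in the double knockout, where 0 had an unadjusted p under 0.05, and 1, Pdgfra, was higher in the double knockout than in the Cyp26b1 knockout. The part of these cells in the inhibitors' changes was not tested.

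**Figure D3:**
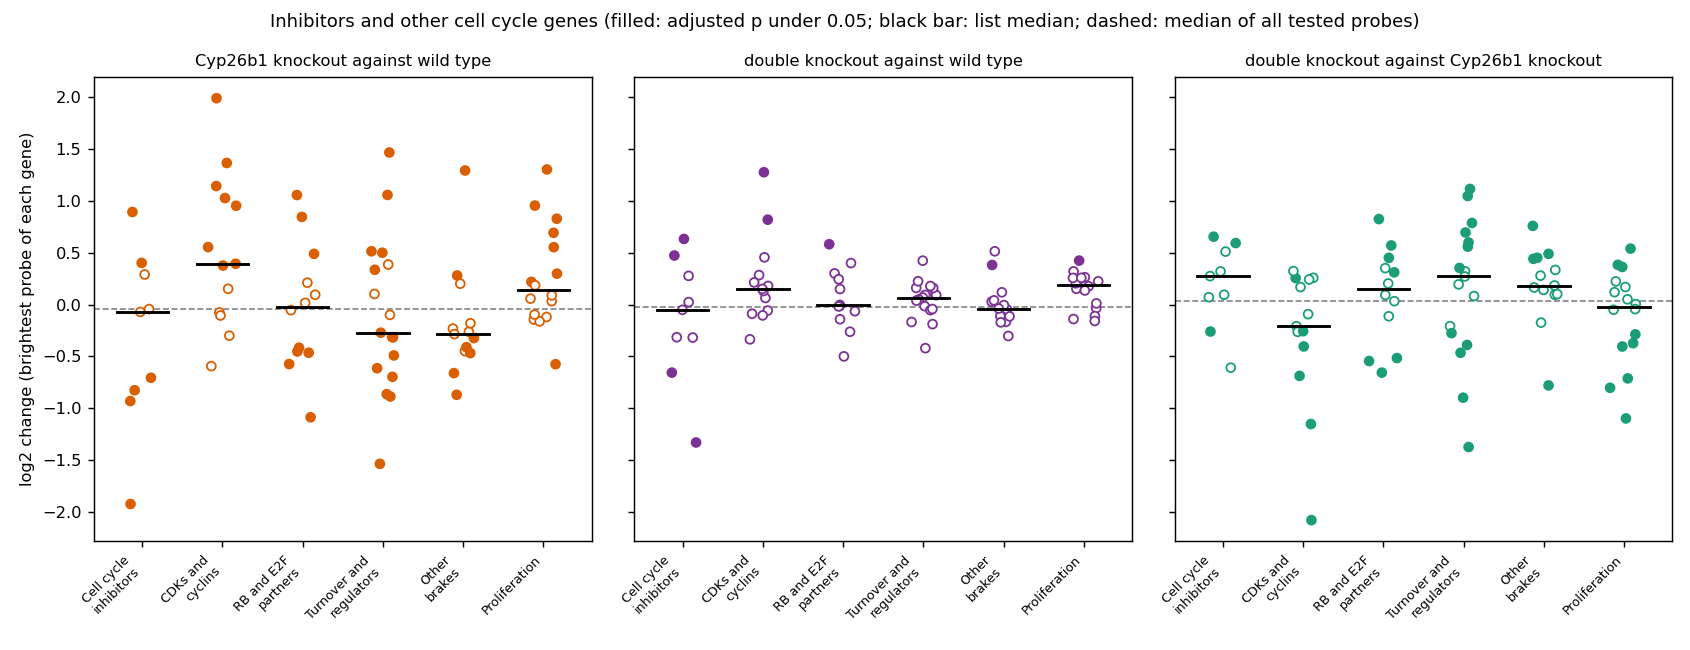
Each point is a gene of the list named under it, by its brightest probe, at its log2 change in the comparison named above the panel, filled where the adjusted p was under 0.05; black bars are list medians and the dashed line is the median of all tested probes. The CDK and cyclin genes called in the Cyp26b1 knockout all lie above 0, and the turnover list has no filled point in the double knockout against wild type.

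Of 13 kinases and cyclins that the inhibitors restrain, 8 rose in the Cyp26b1 knockout relative to wild type and 5 did not pass, with a list median of 0.39 log2, beside -0.04 for all probes. The share called was 61.5%, against 53.2% of all probes. Over this and the other 4 pathway lists described next, 50% to 76.5% of tested genes were called in that comparison, 0% to 15.4% in the double knockout against wild type, where 11.5% of all probes were, and 38.5% to 70.6% between the knockouts, where 45.8% were. Ccne1 and Ccne2, the E-type cyclins that partner Cdk2 at the entry into DNA replication, rose by 1.14 ± 0.12 (limma adjusted p = 0.000358) and by 1.37 ± 0.18 (limma adjusted p = 0.000761). Ccne2 measured 0.287 and 0.272 in the double knockout and 0.746 and 0.516 in the Cyp26b1 knockout, against 0.256 and 0.227 in wild type. The Cyp26b1 knockout pair stood above the other 4 arrays, and a second probe of each cyclin gave rises of 1.41 and 1.25. Cdk2 gave 1.99 on its brightest probe, but its second probe gave -0.29, not called, so no direction is given.

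In the double knockout against wild type 2 of the 13 kinase and cyclin genes rose and 11 did not pass. They were Ccnd1, a D-type cyclin that INK4 proteins compete with, at 0.82 ± 0.13 (limma adjusted p = 0.0112), and Cdk6, a direct INK4 target, at 1.28 ± 0.22 (limma adjusted p = 0.0133). A second Cdk6 probe gave 1.98, not called (limma adjusted p = 0.274). On its brightest probe Cdk6 measured 0.275 and 0.354 in the double knockout and 0.309 and 0.201 in the Cyp26b1 knockout, against 0.127 and 0.131 in wild type. Ccnd1 measured 0.985 and 1.09 in the double knockout and 1.33 and 1.07 in the Cyp26b1 knockout, against 0.626 and 0.549 in wild type. Both genes were thus above wild type on every array of either knockout. Between the knockouts 5 of the 13 were lower in the double knockout and 1, Ccna2, was higher, at 0.26. Ccne1 and Ccne2 differed by -0.69 ± 0.12 (limma adjusted p = 0.00399) and by -1.15 ± 0.18 (limma adjusted p = 0.00221).

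Partners of RB and E2F moved in both directions. Of 12, 3 rose and 5 fell in the Cyp26b1 knockout against wild type, 1 rose in the double knockout, and relative to the Cyp26b1 knockout the double knockout had 4 higher and 3 lower. E2f1, an activating E2F, rose by 1.06 ± 0.11 in the Cyp26b1 knockout (limma adjusted p = 0.000277), and by 1.66 on its other probe. Its level was lower in the double knockout than in the Cyp26b1 knockout, with a change of -0.66 ± 0.11 (limma adjusted p = 0.00264). E2f6, an RB-independent repressor, changed by -1.09 ± 0.08 in the Cyp26b1 knockout (limma adjusted p = 0.000101), and E2f7 and E2f8, further repressors, by -0.57 and -0.46. E2f6 measured 11.6 and 11.5 in the double knockout and 6.40 and 6.65 in the Cyp26b1 knockout, against 13.7 and 14.0 in wild type. E2f5 rose by 0.85. E2f3 was called on its brightest probe in both knockouts and on its second probe in neither.

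Among 17 tested genes that turn over or regulate the inhibitors, 5 rose and 8 fell in the Cyp26b1 knockout against wild type, while limma called 0 in the double knockout, where 2 had an unadjusted p under 0.05. Between the knockouts the double knockout had 7 higher and 5 lower. Ddb1, an adaptor of the Cul4 ubiquitin ligase, rose by 1.47 ± 0.09 in the Cyp26b1 knockout (limma adjusted p = 7.43e-05). It measured 3.46 and 3.59 in the double knockout and 8.77 and 9.5 in the Cyp26b1 knockout, against 3.16 and 3.45 in wild type. Foxo3, a factor known to activate Cdkn1b, rose by 1.06, but its levels were low. It measured 0.0297 and 0.0386 in the double knockout and 0.0598 and 0.0666 in the Cyp26b1 knockout, against 0.0305 and 0.0301 in wild type. Smad3, which carries TGF-beta signals to Cdkn2b and Cdkn1a, rose by 0.51 and by 0.95 on its second probe. Cbx7, a Polycomb protein known to repress the Cdkn2a locus, changed by -0.86, and Foxo1 was 0.79 higher in the double knockout than in the Cyp26b1 knockout. Myc changed by -0.89 on its brightest probe, by -0.79 on another and by 0.20, not called, on a further one. Trp53, which encodes p53, changed by -1.54 on its brightest probe and by 0.63 on its other, both called, so no direction is given.

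Of 13 other cell cycle brakes tested, 2 rose and 5 fell in the Cyp26b1 knockout against wild type, 1 rose in the double knockout, and relative to the Cyp26b1 knockout the double knockout had 4 higher and 1 lower. Ccng2, a cyclin that inhibits the cycle, changed by -0.87 ± 0.09 in the Cyp26b1 knockout (limma adjusted p = 0.000267). It measured 7.09 and 7.69 in the double knockout and 4.54 and 4.19 in the Cyp26b1 knockout, against 7.87 and 8.08 in wild type, so the Cyp26b1 knockout pair stood below the other 4 arrays. Wee1, the kinase that holds Cdk1 inactive, rose by 1.29 ± 0.17 in the Cyp26b1 knockout (limma adjusted p = 0.000705) and was lower in the double knockout than there, with a change of -0.78. Btg3, an antiproliferative gene, rose by 0.28 in the Cyp26b1 knockout and by 0.38 in the double knockout. Tob1, of the same family, changed by -0.47 in the Cyp26b1 knockout. Gadd45a, a relative of Gadd45b, was 0.45 higher in the double knockout than in the Cyp26b1 knockout. The probes of Gadd45gip1 were called in opposite directions.

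Of 16 proliferation genes tested, 7 rose and 1 fell in the Cyp26b1 knockout against wild type, 1 rose in the double knockout, and relative to the Cyp26b1 knockout the double knockout had 3 higher and 6 lower. Mcm3, part of the replicative helicase, rose by 1.30 ± 0.09 in the Cyp26b1 knockout (limma adjusted p = 9.88e-05). It measured 2.68 and 2.52 in the double knockout and 5.90 and 5.26 in the Cyp26b1 knockout, against 2.23 and 2.28 in wild type. Mcm2, of the same helicase, rose by 0.83 in the Cyp26b1 knockout and by 0.42 in the double knockout, and Bub1b, of the spindle checkpoint, by 0.95 ± 0.09 in the Cyp26b1 knockout (limma adjusted p = 0.000256). Aurkb, a mitotic kinase, changed by -0.57 in the Cyp26b1 knockout. Cdt1 and Mcm4, both of replication licensing, were 0.36 and 0.38 higher in the double knockout than in the Cyp26b1 knockout. Genes of DNA replication and of the premeiotic and mitotic cycles overlap, and which cycle these RNAs belong to cannot be told from whole gonads.

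Other genes followed the inhibitors closely. Likeness was measured as the root mean square difference between log2 profiles over the 6 arrays, each centred on its own mean, among 13294 genes. Nearest to Cdkn2b were Bnipl at 0.0578, Slc43a2 at 0.112 and Aass at 0.116, where the median over all genes was 0.818. Nearest to Cdkn1a was Oprl1 at 0.0434, to Cdkn1b Nkapd1 at 0.0749, to Cdkn1c Med30 at 0.0213 and to Gadd45b Atoh8 at 0.0440. Cdkn2d lay nearest to Cntnap1 at 0.0137, Rb1 to Pola1 at 0.0381, Cdkn2c to Lrch1 at 0.0587 and Cdkn2a to Mdfi at 0.192. Among the inhibitors themselves the closest profiles were Cdkn1b and Cdkn1c at 0.204, and the farthest were Cdkn2b and Gadd45b at 1.18. With 6 arrays in 3 genotypes, many genes can share such a profile.

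**Figure D4:**
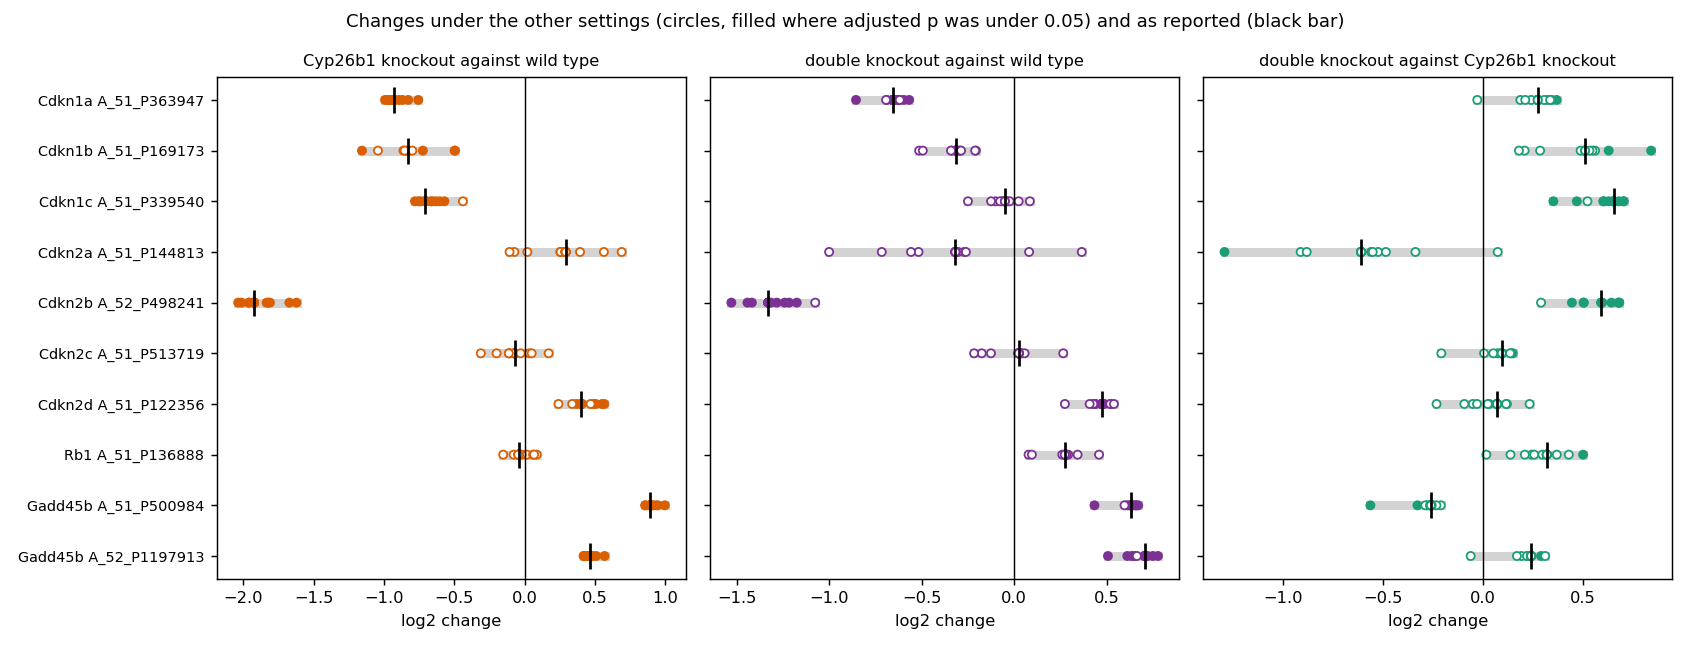
Circles are the log2 changes of each tested probe under the alternative settings, filled where the adjusted p was under 0.05, and black bars are the values as reported; the grey band spans the circles. The Cdkn1a, Cdkn2b and first Gadd45b probe circles in the Cyp26b1 knockout against wild type are all filled, from -0.99 to -0.76, from -2.04 to -1.62 and from 0.86 to 0.996.

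Across 17 alternative settings (16 for the second Gadd45b probe), 13 of the 30 probe results kept their call, or lack of one, in every fit. Of the calls, only those of Cdkn1a, Cdkn2b and the first Gadd45b probe in the Cyp26b1 knockout against wild type held throughout. The rest of those 13 results were never called. The other 12 calls were each lost in at least 1 fit. Among results not called, 5 gained a call, and 0 results changed direction while called. Cdkn2b in the double knockout against wild type lost its call only where the background was modelled by normexp on all spots (limma adjusted p = 0.0557). That setting also ended the calls of Cdkn1c in the Cyp26b1 knockout against wild type, at -0.44 (limma adjusted p = 0.276), and between the knockouts, at 0.52 (limma adjusted p = 0.19). In the Cyp26b1 knockout it further ended those of Cdkn1b (limma adjusted p = 0.268) and the second Gadd45b probe (0.117). In the double knockout it ended Cdkn1a (limma adjusted p = 0.771) and Cdkn2d (0.0627). Between the knockouts it ended Cdkn2b (limma adjusted p = 0.305) and the first Gadd45b probe (0.425).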

How the data were processed

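The authors deposited 1 scanner file per array, with spot intensities on a linear scale. Agilent Feature Extraction is named as version 9.5 in the submitters' processing notes and as 9.5.3.1 in the file headers. Per the file headers, its processed signal had background subtracted. The authors also deposited a table whose values behave as a linear ratio, 1 column per genotype, with centring and reference unknown; its log2 differences correlated with those of the scanner signals at 0.999993 to 0.999998.

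Processed signals were taken to log2 and the 75th percentile of each array was subtracted. Control spots and outlier spots were left out and spots of a probe averaged. A probe was tested if both arrays of 1 or more genotypes were well above background. The test was limma 3.58.1 (R 4.3.3; lmFit, eBayes with an intensity trend; 3 residual and 4.46 prior degrees of freedom), two-sided, in 1 fit over the 6 arrays; the script was tested on simulated data. Names came from accessions matched to RefSeq of GRCm38.p6 (23374 of 41174 probes matched 1 symbol, 17800 none), and promoter windows from RefSeq. The members and gene lists were chosen with earlier results of these data known. From each list, up to 3 risen and 3 fallen genes per comparison with non-overlapping arrays were eligible to be named; Nanos2, Star and Pdgfra were named after their values were seen. The number of arrays limits the precision.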

Additional observations from a re-analysis of the deposited data

How the results depend on the processing

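The 17 settings changed the background correction, scaling, filter, variance trend, samples fitted, probe choice, or left out an array. Median centring, and the use of median spot signals for normexp, were chosen after seeing the data. With normexp on all spots limma called 4703 probes in the Cyp26b1 knockout against wild type, 594 in the double knockout against wild type and 3657 between the knockouts, against 14819, 3198 and 12754 as reported. The cause was not tested. Fitted without marked spots, normexp gave 14712, 2954 and 11898. On all spots it moved the median change of all probes to -0.36, -0.21 and 0.21 log2 in these comparisons and called 1 inhibitor in the double knockout against wild type and 0 between the knockouts, where 1 had an unadjusted p under 0.05. Quantile normalization called 5 inhibitors between the knockouts, against 3. In the double knockout against wild type, the scaling of the authors' deposited table called 6500 probes and no filter on dim probes called 1916. Leaving out an array gave 4 to 6 inhibitors called in the Cyp26b1 knockout against wild type, 1 to 4 in the double knockout against wild type and 1 to 4 between the knockouts, and 648 to 3526 probes in the double knockout against wild type. The low values were 648 and 795 probes without wild-type arrays 2 and 1, and 1831 and 1480 without double knockout arrays 1 and 2. Without the dim-probe filter 65.4% of the calls between the knockouts were higher. No label says that the array numbers pair samples. Deviations of same-numbered arrays correlated at 0.101 to 0.222 over 24500 probes, with 2 numbers only. With the array number as a replicate block, 6, 4 and 4 inhibitors and 15557, 3627 and 13508 probes were called in the Cyp26b1 knockout against wild type, the double knockout against wild type and between the knockouts. The call that the block added was Cdkn2a between the knockouts, at -0.61 (limma adjusted p = 0.0412), and it changed no other call of an inhibitor probe. A block for slide or scan day was not run, since each slide held 1 genotype.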
